A study of Mus musculus with 6 samples.

Results

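Of 22180 genes measured on 6 Affymetrix arrays, 86 encode potassium channel subunits. They were taken by symbol, as every gene named Kcn followed by subfamily letters and a number, from probe sets that list 1 gene, with the brighter probe set used where a gene had several. The arrays hold RNA of cells labelled embryonic fibroblasts, dissected at E14.5 from the dorsal body wall of 129SV embryos that were all heterozygous for a GFP reporter of the transcription factor Ebf2 (Ebf2(GFP)/+), and all freshly sorted for the surface receptor PDGFRα. The Ebf2(GFP)+:Pdgfra+ cells (3 arrays, here GFP-positive) were set against the Ebf2(GFP)-:Pdgfra+ cells (3 arrays, here GFP-negative), to ask how the Ebf2-expressing cells, a sort that the series title ties to precursors of brown and beige fat, differ from the other PDGFRα-positive cells. The labels do not say how many embryos went into a sample or whether each replicate is a separate litter, and the p-values therefore speak only of scatter among these 6 samples, part or all of which may be technical.

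Potassium channels set the membrane voltage of a cell by letting potassium ions leave or enter it. The pore is formed by subunits of the voltage-gated, calcium- or sodium-activated, inward rectifier and 2-pore-domain classes, and auxiliary subunits change the gating or the transport of the pore to the cell surface. In cells that are not excitable, such as fibroblasts and mesenchymal precursors, these channels are known to take part in volume control, proliferation and the driving force for calcium entry.

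The sort was visible in its own gene, and both groups carried the labelled cell type's markers. Ebf2 had a mean log2 value of 12.0 ± 0.061 in GFP-positive cells and 8.65 ± 0.526 in GFP-negative cells (SD, n = 3 each), and Pdgfra 13.1 ± 0.090 and 12.9 ± 0.043. The mean over 8 fibroblast markers was 12.70 to 12.76 on the GFP-positive arrays and 12.96 to 13.02 on the GFP-negative ones. Of the 8, 2 fell and none rose. Thy1, a surface protein of fibroblasts, fell to 8.42 ± 0.106 in GFP-positive cells, against 10.4 ± 0.110 in GFP-negative cells (SD, n = 3 each), a log2 change of −1.95 (limma adjusted p = 0.000276), and Lum, which encodes the matrix proteoglycan lumican, fell by 0.34 on the log2 scale (adjusted p = 0.0295). All 12 macrophage markers and all 7 cartilage markers fell in GFP-positive cells. The mean of the macrophage markers was 7.22 to 8.16 on the GFP-positive arrays and 9.42 to 10.30 on the GFP-negative arrays, and that of the cartilage markers 9.45 to 9.77 and 11.30 to 11.57. Of 5 Schwann and neural crest markers 2 fell and none rose (7.76 to 8.08 on GFP-positive arrays, 8.52 to 8.84 on GFP-negative arrays), and of 10 mural markers 4 fell and 1 rose (9.72 to 9.77 and 9.93 to 10.01). Among 7 endothelial markers 1 rose and 1 fell (9.07 to 9.40 and 9.05 to 9.75), among 9 skeletal muscle markers 1 rose (7.46 to 7.72 and 7.29 to 7.60), and among 8 neuron markers 1 fell (7.99 to 8.02 and 8.04 to 8.07). With the replicate number as a block in the fit, 2 mural markers rose and 3 fell, 2 neuron markers rose and 2 fell, 1 endothelial marker rose and 2 fell, and 3 Schwann and neural crest markers fell, while the counts of the other lists were the same. These are relative signals on a log2 scale on which no gene is at 0. The macrophage marker Ptprc, the muscle marker Myh3 and the neuron marker Elavl4 had 6-array means below 6.78, the 40th percentile of all gene means, which serves here as a mark of dim genes. The part of these cell types in the channel results below was not tested, and in sorted bulk RNA fewer cells of a type and less RNA per cell cannot be told apart.

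Of the 86 genes, 6 rose and 4 fell in GFP-positive cells at an adjusted p under 0.05 (limma, adjusted over all 22180 genes). The 10 genes are 11.6% of the members, where 6.49% of all genes passed. By direction, the 6 higher genes are 6.98% of the members against 2.65% of all genes, and the 4 lower genes 4.65% against 3.84%. After median centring of the arrays the split was 8 higher and 2 lower, while over all genes the higher share of the calls was 55.1% in place of 40.9%. The genes that rose were Kcnip4, Kcnb2, Kcna5, Kcnma1, Kcnh5 and Kcnh2, with log2 changes of 0.34 to 0.87. Those that fell were Kcnk2, Kcnq5, Kcnn2 and Kcnmb1, with log2 changes of −0.93 to −0.29. No member differed by 2-fold or more (0 of 86).

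The remaining 76 members did not pass. The median log2 change was −0.04 over the 86 members and 0.02 over all genes. Of the 86 changes 33 were above 0, a count that was not taken over all genes and that depends on how arrays are centred. Median centring raised the median change of all genes by 0.06, and that of the members to above 0. Of the members, 39 had a 6-array mean below the dim mark (45.3%), and 1 of these passed (Kcnmb1), where 1.59% of all genes below the mark did. Of the 47 above it 9 passed (19.1%, against 9.75% of all genes above the mark). At an unadjusted p under 0.05 there were 21 members (24.4%, against 17.7% of all genes). The arrays of the groups did not overlap for 12 members that were higher (12.3% of all genes were) and 11 that were lower (9.78% of all genes), together 26.7% of the members against 22% of all genes. With the replicate number as a block in the fit, 7 members rose and 5 fell, where 4.55% of all genes rose and 5.49% fell.

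**Figure D1:**
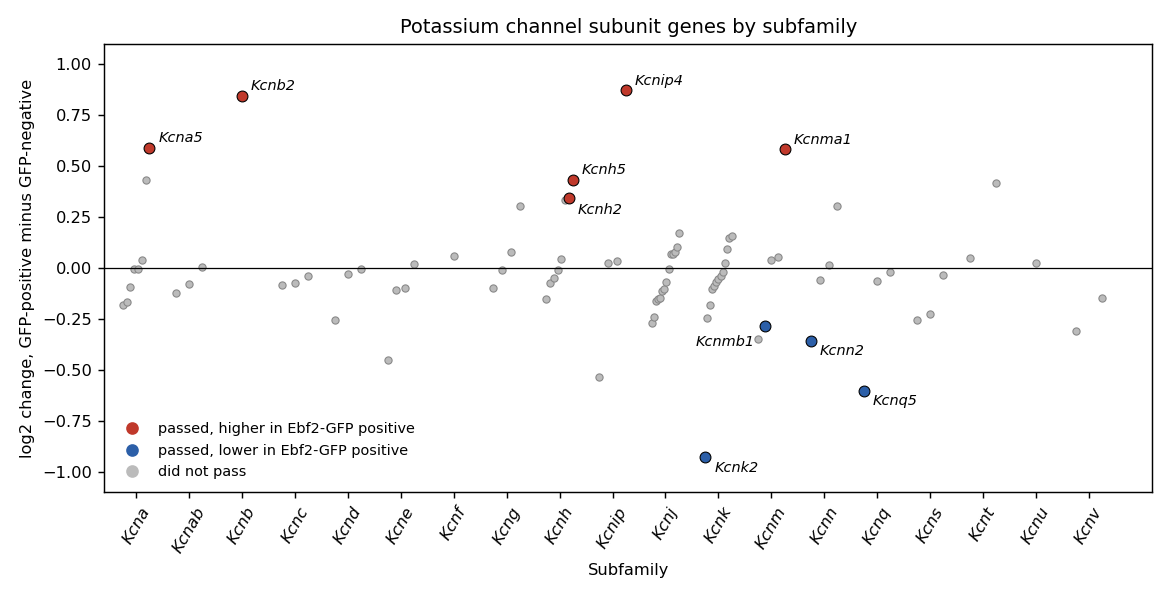
Log2 change (GFP-positive minus GFP-negative) of each of the 86 genes by subfamily. Coloured points passed the test (red higher, blue lower), and grey points did not. The 10 passing genes are spread over 8 subfamilies, and most grey points lie close to 0.

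Promoter windows of 3 of the genes that passed are printed because the cells were sorted on an EBF factor and EBF proteins are known to bind a palindrome of TCCC, any 2 bases and GGGA. The windows run from 250 bases before to 50 bases after a RefSeq start site of GRCm38.p6, 5′ to 3′ along the gene, with matches to the inner letters CCCNNGGG in capitals. Kcnip4 (chr5:48599633-48599932, minus strand, 1 of 2 windows of the gene) and Kcnma1 (chr14:24004156-24004455, minus strand) are the genes that rose and hold a match. Kcnq5 (chr1:21961893-21962192, minus strand, 1 of 2 windows) fell and is shown beside them.
Kcnip4: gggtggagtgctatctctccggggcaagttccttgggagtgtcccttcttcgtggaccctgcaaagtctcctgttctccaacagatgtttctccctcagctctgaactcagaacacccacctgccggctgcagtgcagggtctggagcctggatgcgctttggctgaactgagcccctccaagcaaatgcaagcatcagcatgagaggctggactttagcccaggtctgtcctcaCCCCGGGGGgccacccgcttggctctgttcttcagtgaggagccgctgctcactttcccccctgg
Kcnma1: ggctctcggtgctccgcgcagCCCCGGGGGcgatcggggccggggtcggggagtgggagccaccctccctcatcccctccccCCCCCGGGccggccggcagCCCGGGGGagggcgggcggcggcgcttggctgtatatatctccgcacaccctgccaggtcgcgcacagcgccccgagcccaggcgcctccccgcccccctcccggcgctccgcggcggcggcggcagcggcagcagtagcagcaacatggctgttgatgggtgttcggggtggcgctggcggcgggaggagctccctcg
Kcnq5: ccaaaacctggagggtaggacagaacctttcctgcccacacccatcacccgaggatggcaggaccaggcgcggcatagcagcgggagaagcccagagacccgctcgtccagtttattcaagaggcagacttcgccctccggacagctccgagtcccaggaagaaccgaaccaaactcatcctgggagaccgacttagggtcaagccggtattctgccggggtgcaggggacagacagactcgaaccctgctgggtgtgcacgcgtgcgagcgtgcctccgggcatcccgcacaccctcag

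In the Kcnip4 window 2 overlapping matches start 15 and 14 bases before the start site, and in the Kcnma1 window 4 matches start at −229, −228, −168 and −149, the first 2 of them overlapping. Both motifs read the same on either strand, and every match to the longer motif is also one to the shorter. CCCNNGGG was found in 13.7% of all 32851 windows and in 15 of the 91 windows of members (16.5%), which covered 66 of the 86 genes. It was in 2 of 6 windows of members that rose, which come from 5 genes. Among members that fell it was in 0 of 7 windows, from only 3 genes. Windows of the same gene are not independent, and Kcnb2 and Kcnn2 had no window. No difference between these groups was tested. The full palindrome was in 0.904% of all windows and in 0 of the 91 windows of members. These are letter matches in short windows of unequal base composition (78.0% G and C in the Kcnma1 window, 59.7% in that of Kcnip4 and 62.7% in that of Kcnq5), and are no measure of binding.

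Among the 26 voltage-gated pore genes, 4 rose, 1 fell and 21 did not pass, with a median log2 change of −0.03. Kcnb2, which encodes a delayed rectifier pore of the Kv2 type, had log2 values of 9.13, 9.13 and 9.27 in GFP-positive cells and 8.37, 8.23 and 8.39 in GFP-negative cells. All GFP-positive arrays lay above all GFP-negative ones, with a gap wider than the range within either group. The difference was 1.80-fold (log2 change 0.85 ± 0.07 SE, limma adjusted p = 0.00148), and the call held without any 1 of the 6 arrays (adjusted p up to 0.0116).

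Kcna5, a delayed rectifier of the Kv1 family known from atrial and vascular muscle, had values of 7.59, 7.46 and 7.26 in GFP-positive cells and 6.96, 6.80 and 6.78 in GFP-negative cells. The groups did not overlap, and the GFP-negative values lay close to the dim mark. Its log2 change was 0.59 ± 0.10 SE (1.5-fold, limma adjusted p = 0.0187). The call ended without GFP-negative replicate 2 or 3 (adjusted p = 0.0735 and 0.0654) and without GFP-positive replicate 1 or 2 (0.0635 and 0.0837). In the RefSeq gene order Kcna5 is followed by Kcna1 and Kcna6 on chromosome 6. Kcna1 had 7.27, 6.69 and 6.28 in GFP-positive cells and 6.36, 6.42 and 6.16 in GFP-negative cells, so that the groups overlapped (log2 change 0.43 ± 0.24 SE, adjusted p = 0.425). Kcna6 differed by −0.17 ± 0.14 SE (adjusted p = 0.621). The other measured Kcna genes, Kcna2, Kcna3, Kcna4, Kcna7 and Kcna10, had log2 changes between −0.18 and 0.04, and none passed.

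In the Kcnh subfamily, which includes the EAG and ERG channels, 2 of 8 genes rose and none fell. Kcnh5, an EAG channel, had values of 7.92, 7.78 and 7.76 in GFP-positive cells and 7.42, 7.42 and 7.31 in GFP-negative cells (1.35-fold, log2 change 0.43 ± 0.07 SE, adjusted p = 0.0134). The groups stood clear of each other, and the call was lost only without GFP-positive replicate 2 (adjusted p = 0.0521). Kcnh2, the ERG channel that repolarises heart muscle, had values of 8.08, 8.0 and 7.89 in GFP-positive cells and 7.56, 7.67 and 7.71 in GFP-negative cells. It too separated the groups, with a smaller gap (1.27-fold, log2 change 0.34 ± 0.07 SE, adjusted p = 0.0400). With the replicate number as a block it did not pass (adjusted p = 0.0597), nor did it with eBayes fitted with a trend and robust (0.0561) or without any 1 array (0.0585 to 0.140). The EAG relative Kcnh1 had values of 7.60, 7.33 and 7.20 in GFP-positive cells and 7.12, 6.99 and 7.02 in GFP-negative cells, which differed by 0.33 ± 0.11 SE in log2 and did not pass (adjusted p = 0.146). The other 5 genes of the subfamily (Kcnh3, Kcnh4, Kcnh6, Kcnh7 and Kcnh8) had changes between −0.15 and 0.04.

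Kcnq5, a pore of the slow M-type current, was the voltage-gated gene that fell. Its values were 7.47, 7.43 and 7.51 in GFP-positive cells and 8.14, 8.06 and 8.03 in GFP-negative cells. The arrays of each group lay close together, and the gap between the groups was far wider than the range within either. The difference was 1.52-fold (log2 change −0.60 ± 0.06 SE, limma adjusted p = 0.00211), and the call held without any 1 array (adjusted p up to 0.0161). Kcnq1 and Kcnq3 differed by −0.06 and −0.02 (adjusted p = 0.819 and 0.919). No Kcnc gene (0 of 3) and no Kcnd gene (0 of 3) passed. Kcnc4, of the fast Kv3 type, was at 7.56 ± 0.076 and 7.63 ± 0.231 (SD, n = 3 GFP-positive and 3 GFP-negative arrays).

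**Figure D2:**
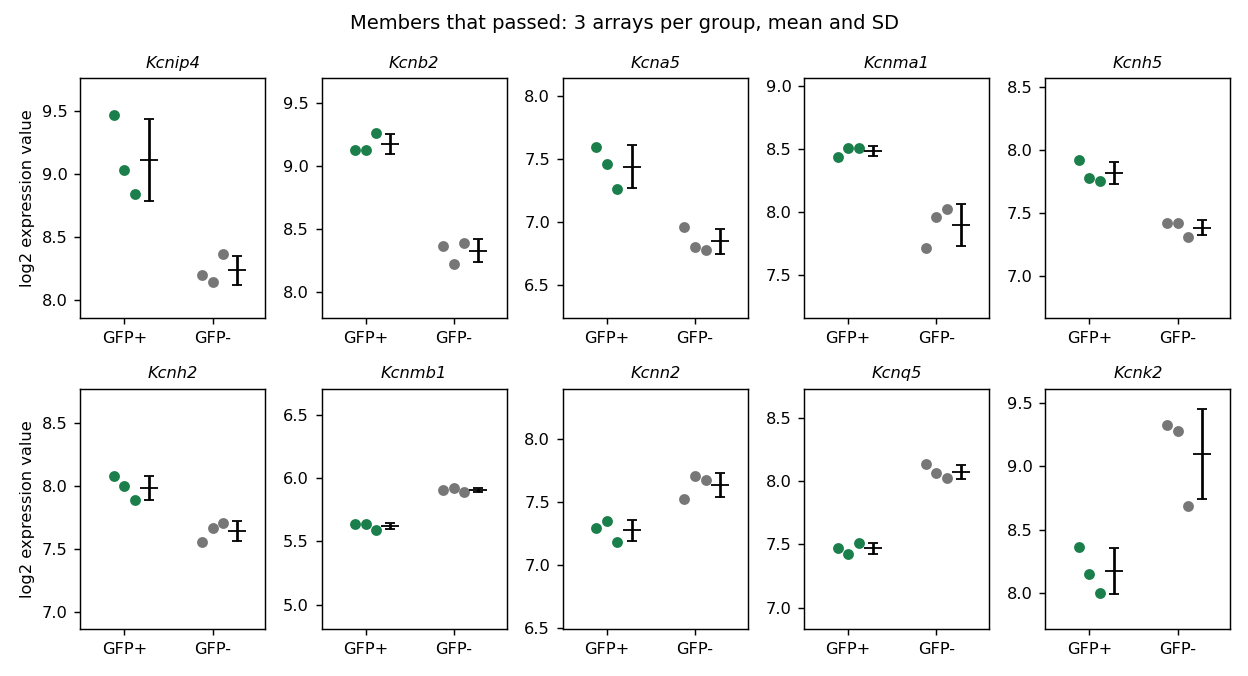
Log2 values of the 10 genes that passed, with a point for each array, and a horizontal tick and bar for the mean and SD of the 3 arrays. GFP-positive (green) stands left of GFP-negative (grey), and every panel spans the same number of log2 units. In no panel do the groups overlap, and Kcnip4 and Kcnk2 have the widest scatter within a group.

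The modifier genes Kcnf1, Kcng, Kcns and Kcnv encode pore-like subunits that form no channel alone and join Kv2 pores. None of the 10 passed (median log2 change −0.07). Kcng4 came nearest on the higher side, with 7.22, 7.25 and 7.18 in GFP-positive cells and 6.76, 7.05 and 6.92 in GFP-negative cells (0.31 ± 0.08 SE, adjusted p = 0.0864), and is named after its values were seen. It passed after quantile normalization or median centring. Kcnv1 came nearest on the lower side, with 6.91, 6.84 and 6.92 in GFP-positive cells and 7.10, 7.36 and 7.15 in GFP-negative cells (−0.31 ± 0.08 SE, adjusted p = 0.0779). For both, the arrays of the groups did not overlap. Kcnf1, Kcng1 and Kcns3 differed by 0.06, 0.08 and −0.03 (adjusted p = 0.870, 0.785 and 0.913). Amigo1, a membrane protein that accompanies Kv2 channels, was 0.28 ± 0.08 SE higher in log2 without passing (adjusted p = 0.124). Kcnb2 was thus the 1 gene that passed among the Kv2 pore, these modifiers and Amigo1.

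Among the 15 auxiliary genes 1 rose, 1 fell and 13 did not pass. Kcnip4 encodes a calcium-binding protein of the KChIP family, which joins Kv4 channels. It had values of 9.47, 9.03 and 8.84 in GFP-positive cells and 8.20, 8.14 and 8.36 in GFP-negative cells. GFP-positive replicate 1 stood highest, and the lowest GFP-positive array still lay above all GFP-negative ones. The difference was 1.83-fold (log2 change 0.87 ± 0.16 SE, limma adjusted p = 0.0252). The call ended without any 1 GFP-negative array (adjusted p = 0.0854, 0.101 and 0.0580 without replicate 1, 2 and 3) and without GFP-positive replicate 2 (0.0860).

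None of the Kv4 pores that Kcnip4 is known to join passed. Kcnd2 was at 9.38, 9.46 and 9.46 in GFP-positive cells and 9.50, 9.52 and 9.38 in GFP-negative cells, overlapping ranges with a log2 change of −0.03 (95% interval −0.18 to 0.12, adjusted p = 0.864). Kcnd1 differed by −0.01 (−0.20 to 0.19) and Kcnd3 by −0.25 (−0.51 to 0.00158), and neither passed. Of the other KChIP genes, Kcnip3 differed by 0.03 (−0.24 to 0.29) and Kcnip2, which lay below the dim mark, by 0.03. Kcnip1 had 7.02, 6.81 and 6.55 in GFP-positive cells and 7.0, 7.65 and 7.34 in GFP-negative cells, with 1 GFP-negative array inside the GFP-positive range (−0.53 ± 0.18 SE, adjusted p = 0.186). The Kv4 partners Dpp6 and Dpp10 differed by 0.08 and 0.33 (adjusted p = 0.781 and 0.548).

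No Kcnab gene (0 of 3) or Kcne gene (0 of 4) passed. Kcnab2, a cytoplasmic beta subunit of Kv1 channels, differed by 0.01 ± 0.09 SE. Kcne4, a single-pass membrane subunit known to inhibit Kcnq1 channels, had values of 9.56, 9.94 and 9.75 in GFP-positive cells and 9.82, 10.47 and 10.30 in GFP-negative cells. The ranges overlapped, while each GFP-positive array was below the GFP-negative array of its own replicate number. Without the replicate block the log2 change was −0.45 ± 0.18 SE (adjusted p = 0.255), and with it Kcne4 passed (0.0253).

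Of the subunit genes of the calcium-activated BK channel, 1 rose and 1 fell, both with calls that some alternatives lost. Kcnma1, its only pore gene, had values of 8.43, 8.50 and 8.50 in GFP-positive cells and 7.71, 7.96 and 8.02 in GFP-negative cells. The GFP-positive arrays agreed closely and lay above all GFP-negative ones (1.5-fold, log2 change 0.58 ± 0.09 SE, adjusted p = 0.0127). The call ended without any 1 GFP-positive array (adjusted p = 0.0538, 0.0639 and 0.0598 without replicate 1, 2 and 3). It also ended when this probe set was averaged with the dimmer one of Kcnma1 (adjusted p = 0.0872), as described below. Kcnmb1, a beta subunit best known from smooth muscle, had 5.64, 5.64 and 5.59 in GFP-positive cells and 5.91, 5.92 and 5.89 in GFP-negative cells (1.22-fold lower, log2 change −0.29 ± 0.05 SE, adjusted p = 0.0188). All 6 arrays lay below the dim mark, and the call ended after median centring (adjusted p = 0.0539), without GFP-negative replicate 2 or 3 (0.0505 and 0.0506) and without any 1 GFP-positive array (0.0679 to 0.0782). Of the 10 mural markers, which include those of smooth muscle, 4 fell and 1 rose, as given above. With the replicate block 3 fell and 2 rose. Their part in the change of Kcnmb1 was not tested.

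Kcnmb1 overlaps Kcnip1 in the RefSeq gene order of chromosome 11 and their start sites lie on opposite strands. Both changes were below 0, but of the pair only Kcnmb1 passed, and whether a probe set tells overlapping genes apart was not tested. Kcnmb4, a beta subunit known from neurons, had 8.04, 8.08 and 8.01 in GFP-positive cells and 8.65, 8.21 and 8.32 in GFP-negative cells, ranges that did not overlap (−0.35 ± 0.11 SE, adjusted p = 0.154). Kcnmb2 and Kcnmb3 differed by 0.04 and 0.05. The gamma subunit genes Lrrc26, Lrrc38, Lrrc52 and Lrrc55 had changes between −0.16 and −0.04, and none passed.

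**Figure D3:**
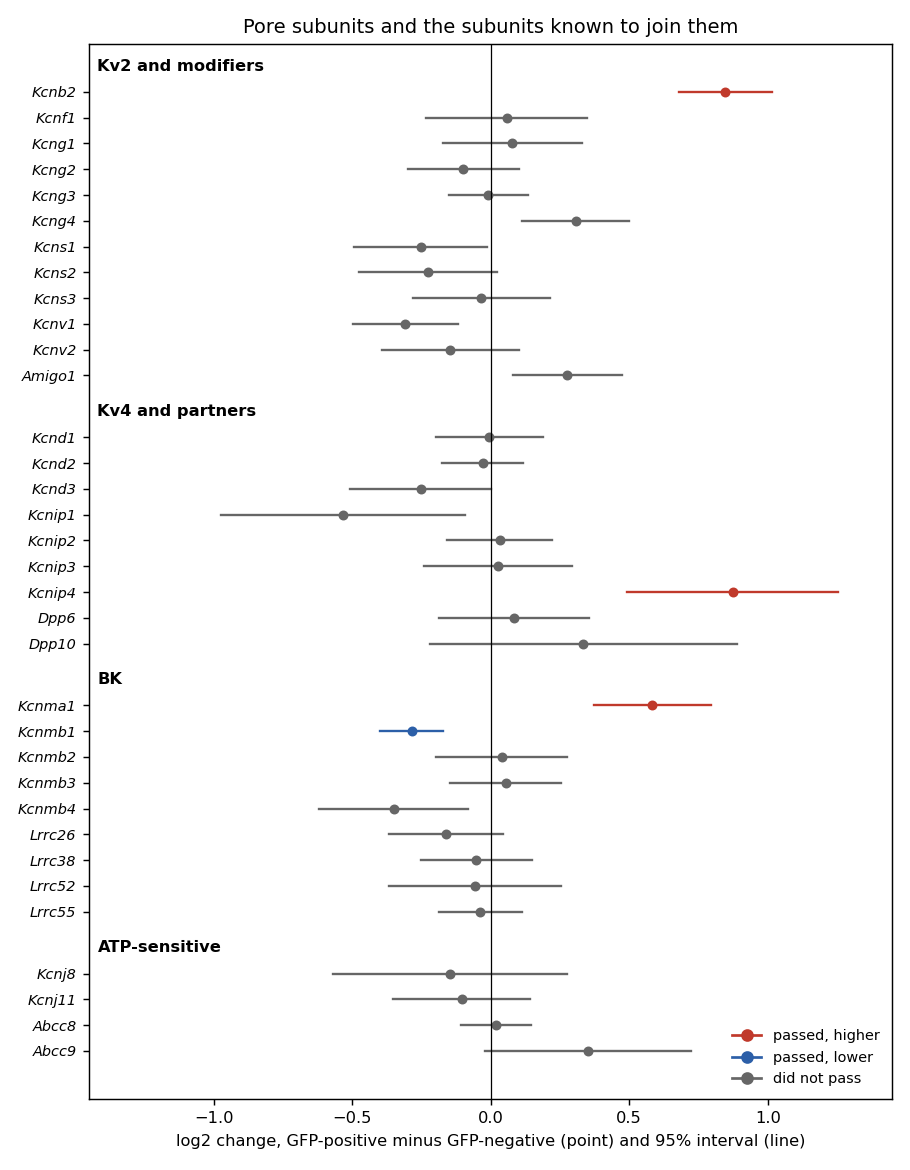
Log2 change (point) and its unadjusted 95% interval (line) for genes of 4 kinds of channel and the subunits known to join them. Within the Kv2, Kv4 and BK groups 1 gene rose in each, Kcnmb1 fell, and no gene of the ATP-sensitive group passed.

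The other calcium- or sodium-activated pores were mixed. Kcnn2, a small-conductance SK channel opened by calcium, had values of 7.29, 7.35 and 7.18 in GFP-positive cells and 7.53, 7.70 and 7.67 in GFP-negative cells (1.28-fold lower, log2 change −0.36 ± 0.07 SE, adjusted p = 0.0368). The ranges did not overlap. The call ended after median centring (adjusted p = 0.05), after quantile normalization (0.0521), with eBayes fitted with a trend and robust (0.0515), and without each array but GFP-negative replicate 1 (0.0807 to 0.122). Its relative Kcnn3 had 9.65, 9.43 and 9.57 in GFP-positive cells and 9.35, 9.11 and 9.28 in GFP-negative cells. These ranges did not overlap either, in the opposite direction (0.30 ± 0.09 SE, adjusted p = 0.114, or 0.0223 with the replicate block).

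Kcnt2, a sodium-activated channel, lay at the threshold. It had 7.98, 7.90 and 8.17 in GFP-positive cells and 7.53, 7.53 and 7.74 in GFP-negative cells, with no overlap (1.34-fold, log2 change 0.42 ± 0.09 SE, adjusted p = 0.0503). The replicate block brought it past the threshold (0.0101), and so did quantile normalization (0.0301), median centring (0.0253) and leaving out dim genes (0.0356). Kcnt1, Kcnn1 and Kcnn4 differed by 0.05, 0.01 and −0.06, and Kcnu1, a channel known from sperm, was below the dim mark in both groups (5.38 ± 0.011 and 5.35 ± 0.088, SD, n = 3 GFP-positive and 3 GFP-negative arrays).

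None of the 14 inward rectifier genes passed, and their log2 changes lay between −0.27 and 0.17. Kcnj8, the pore of the ATP-sensitive channel of pericytes and vascular muscle, had 10.82, 10.88 and 11.15 in GFP-positive cells and 10.73, 11.15 and 11.41 in GFP-negative cells. These ranges overlapped widely (log2 change −0.15, 95% interval −0.57 to 0.27, adjusted p = 0.749). Abcc9, the regulatory subunit that Kcnj8 pairs with and 1 of the mural markers, differed by 0.35 ± 0.16 SE in log2 and passed only with the replicate block (adjusted p = 0.0432, or 0.317 without it). Kcnj3 and Kcnj10, with the lowest changes of the group, differed by −0.27 and −0.24 (adjusted p = 0.174 and 0.341), and Kcnj2, a strong rectifier, by 0.17 (adjusted p = 0.382). Kcnj3, Kcnj10 and Kcnj2 were named after their values were seen.

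Among the 13 members that encode 2-pore-domain channels, which carry the background leak of potassium, 1 fell and 12 did not pass. Kcnk3 is not among the members, so its change is not known here. Kcnk2, a TREK channel that responds to membrane stretch, lipids and temperature, had values of 8.36, 8.14 and 8.0 in GFP-positive cells and 9.33, 9.28 and 8.69 in GFP-negative cells. GFP-negative replicate 3 stood below the other arrays of its group, yet above all GFP-positive arrays. The difference was 1.91-fold (log2 change −0.93 ± 0.18 SE, adjusted p = 0.0331, or 0.00667 with the replicate block). Without GFP-negative replicate 3 it passed (adjusted p = 0.00886), and without any other 1 array it did not (0.0796 to 0.125).

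Neither of its measured TREK relatives passed. Kcnk4 had a log2 change of −0.09 (95% interval −0.42 to 0.24) and Kcnk10, below the dim mark, one of 0.09 (−0.12 to 0.31). Kcnk1, a TWIK channel, was at 10.14, 10.19 and 10.06 in GFP-positive cells and 10.26, 10.31 and 10.03 in GFP-negative cells, which overlapped (−0.07 ± 0.08 SE, adjusted p = 0.758). The 12 genes of this class that did not pass had changes between −0.25 and 0.15.

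Partners of these channels and other genes of potassium transport were listed separately. Of 38 listed genes 33 were measured. At an adjusted p under 0.05 (limma) 1 was lower, none was higher and 32 did not pass, where 6.49% of all genes passed. The median log2 change of the 33 was 0.03. The gene that fell was Fxyd5, which encodes a FXYD protein that joins the sodium-potassium pump. Its values were 8.28, 8.56 and 8.71 in GFP-positive cells and 9.21, 9.39 and 9.54 in GFP-negative cells, without overlap (log2 change −0.86 ± 0.13 SE, adjusted p = 0.0128). The call ended without GFP-positive replicate 2 (adjusted p = 0.0568) and without GFP-negative replicate 2 (0.0553). With the replicate block 4 partner genes passed (Fxyd5, Fxyd7, Slc12a5 and Abcc9), where 10% of all genes did.

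For 7 members the array has 2 probe sets. For 3 of these the 2 changes lay apart by more than the larger of their SE, a difference that was not tested. Kcna4, a Kv1 channel with fast inactivation, was at 10.55, 10.60 and 10.38 in GFP-positive cells and 10.55, 10.51 and 10.49 in GFP-negative cells by the brighter probe set, with a log2 change of −0.01 ± 0.07 SE (adjusted p = 0.976). The dimmer probe set gave 6.31, 6.24 and 6.65 in GFP-positive cells and 7.40, 7.26 and 6.97 in GFP-negative cells, which did not overlap. For Kcnma1 the brighter probe set is the one that rose, whereas the dimmer one, with a 6-array mean of 5.29, differed by −0.09 ± 0.06 SE, and with the probe sets averaged Kcnma1 did not pass (0.25 ± 0.07 SE, adjusted p = 0.0872). For Kcnq5 the dimmer probe set, with a mean of 5.79, differed by −0.18 ± 0.09 SE, and the average still passed (−0.39 ± 0.05 SE, adjusted p = 0.00850).

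**Figure D4:**
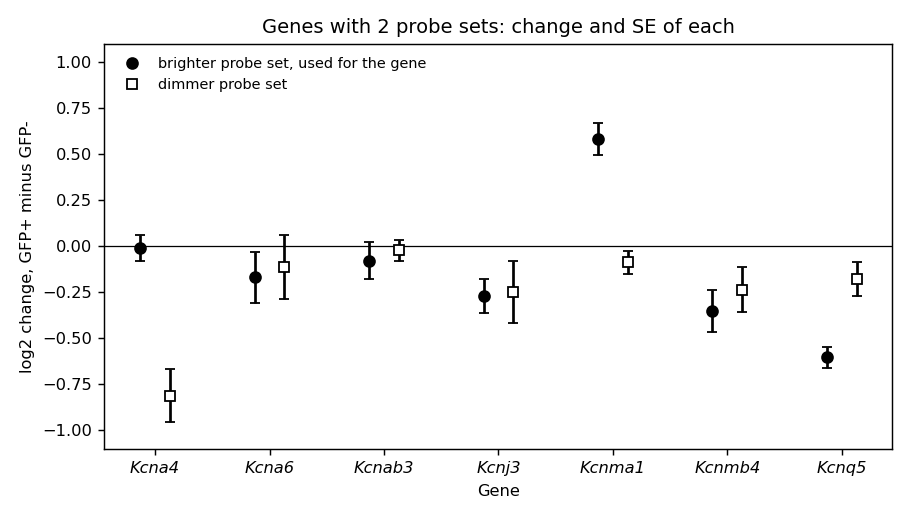
Log2 change with its SE for both probe sets of the 7 genes that have 2. The probe sets of Kcna4, Kcnma1 and Kcnq5 lie apart by more than the larger of their 2 SE. Those of Kcna6, Kcnab3, Kcnj3 and Kcnmb4 do not.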

How the data were processed

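The authors deposited log2 expression values per probe set for 3 arrays of each group. RMA and limma are the tools listed in the submitters' processing notes, without versions or filters. RMA scales arrays towards each other, so a change common to most genes can be hidden, and precision is limited by having 6 arrays. The deposited values fit a log2 scale (3.41 to 14.32, array medians 6.66 to 6.71). Levels of different probe sets are not on a common scale. They were used across genes only to choose named genes, to set the dim mark and to average the marker lists. That mark is therefore a rough guide, and the averages serve to compare arrays, not lists.

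Of 41345 probe sets 23521 list 1 gene in the platform table, 1814 list several and 16010 none. Symbols were updated by gene identifier through RefSeq (GRCm38.p6), which also gave chromosomes and gene order, and no member's symbol changed. RefSeq names 92 genes of the pattern, and the 6 that are no members were not analysed here. Promoter windows are RefSeq's. limma 3.58.1 in R 4.3.3 (lmFit, eBayes) was fitted over all 22180 genes with no filter, with Benjamini-Hochberg adjustment and a threshold of 0.05, and was tested on simulated data. Changes are GFP-positive minus GFP-negative, and errors beside changes are moderated SE.

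Named genes are the members that passed, the brightest member of each subfamily, the 3 largest increases and decreases among the others, partners that passed, and Ebf2 and Pdgfra. The members, lists and rules were chosen with earlier results of these data known. Deviations of same-numbered arrays from their group means correlated at 0.314 to 0.519, and the labels do not say what a number shares. Pairing by number rests on these correlations, and values with the replicate block stand beside channel, partner and marker results that it moved. Alternatives were this block, dropping dim genes, median centring, quantile normalization, averaging or separately testing probe sets, eBayes with trend and robust, array weights, a threshold of 0.01 and leaving out each array. Plots were drawn with matplotlib 3.10.9.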

Additional observations from a re-analysis of the deposited data

Results flagged for a closer look

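The dimmer probe set of Kcna4, which the main comparison of genes did not use, carried a difference of its own. Its log2 change was −0.81 ± 0.15 SE (1.75-fold lower in GFP-positive cells, limma adjusted p = 0.0249 over all probe sets), with means of 6.40 ± 0.217 in GFP-positive cells and 7.21 ± 0.218 in GFP-negative cells (SD, n = 3 each). With both probe sets averaged, Kcna4 passed as lower (−0.41 ± 0.07 SE, adjusted p = 0.0250). What each probe set measures was not tested.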

How the results depend on the processing

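Kcnb2 and Kcnq5 passed under every alternative run, the threshold of 0.01 included. The separate test of probe sets was read only for the brighter probe set of a gene. The dimmer probe set of Kcnq5 did not pass by itself (limma adjusted p = 0.407 over all probe sets). At that threshold 1 channel gene was higher and 1 lower, 0 partner genes passed, and 539 of all genes did, against 1439 at 0.05. With the replicate block, 2228 genes, 12 channel genes (9 of the 10 among them) and 4 partner genes passed. Median centring left 2 channel genes lower, Kcnk2 and Kcnq5. The partner count was 3 after quantile normalization or median centring, and 2 without dim genes, with trend and robust eBayes or with array weights. Over all genes 1525 passed after quantile normalization and 1641 after median centring. The count was 1523 of 13308 without dim genes, 1495 with trend and robust eBayes and 1547 with array weights. Over the fits that left out 1 array, 1 to 4 channel genes were higher and 1 to 3 lower, 0 to 1 partner genes passed, 629 to 1067 genes passed, and 25 to 35 channel genes had groups that did not overlap, against 23 with all arrays. With fewer arrays non-overlap is easier for every gene, and these counts are 29.1% to 40.7% of the members where 29.3% to 35.4% of all genes did not overlap. The median change of the channel genes ran from −0.06 to 0.00039 over these fits. It was 0.02 after median centring, which also raised the median change of all genes by 0.06. No change of a named gene that was called in any fit turned its direction. The 12 named genes that passed lost the call in 42 of 167 repeats at the threshold of 0.05, and the 20 that did not pass gained one in 8 of 277. The 12 include Ebf2, on which the cells were sorted. The repeats include the separate test of probe sets, which used the same values again and moved no call. The share of lost calls is therefore no measure for the channel genes alone. Values near the dim mark may have little signal over background, which was not measured, and no detection calls were used here.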
